A study of Mus musculus with 64 samples.

Results

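The heat shock and immediate early genes Hspa1a, Hspa1b, Hsph1, Dnajb1, Hspa8, Fos, Fosb, Junb, Egr1 and Ier2 were followed across 64 RNA-seq libraries. The 10 genes were taken by name from tables of 19521 genes, and all 10 were present. Male C57BL/6 mice, wild type (labelled CTRL) or mutant for Pklr (labelled KO), gave liver, heart, muscle and white adipose tissue (WAT). All mice ate chow to 8 weeks of age, then stayed on chow or changed to a high-sucrose diet (HSD) for 8 weeks, and tissues were taken at 16 weeks. Each tissue therefore had 4 groups of 4 libraries: CTRL on chow, CTRL on HSD, labelled KO on chow and labelled KO on HSD. The Pklr mutation is given as a germline genotype with no further description. No source used here gives the hour of death, the order of dissection or the delay to freezing.

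Both sets of genes respond to handling within minutes, so they are often read as a record of the last part of an animal's life and of dissection. Heat shock genes encode chaperones: when proteins unfold, the factor HSF1 is released from chaperone binding, trimerises and activates genes with arrays of short inverted repeats in their promoters. Immediate early genes encode transcription factors that are induced without new protein synthesis when MAP kinases, calcium or cAMP activate serum response factor, its partners and CREB. In liver, fat, heart and muscle both sets are known to react to ischaemia, fasting, exercise, anaesthesia and warming or cooling of the tissue.

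Hspa1a and Hspa1b encode the stress-inducible cytosolic HSP70 proteins and lie beside each other (GRCm38, chr17:34969190-34972156 and chr17:34956436-34959238, both on the minus strand). The 250 bases before their start sites are shown because they are almost the same in both genes, and that of Hsph1, the HSP110 exchange factor of HSP70 (chr5:149614287-149636376, minus strand), because it holds the other form of the repeat. The sequences are from RefSeq on GRCm38.p6, 5′ to 3′ on the gene's strand. They cover chr17:34972157-34972406, chr17:34959239-34959488 and chr5:149636337-149636586. Capitals mark a pair of inverted heat shock units, spelled GAANNTTC or TTCNNGAA.
Hspa1a: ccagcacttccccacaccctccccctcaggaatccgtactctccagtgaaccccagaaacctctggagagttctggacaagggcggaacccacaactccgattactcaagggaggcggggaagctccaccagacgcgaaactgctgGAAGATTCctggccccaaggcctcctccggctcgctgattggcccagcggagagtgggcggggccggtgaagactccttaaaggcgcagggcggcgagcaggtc
Hspa1b: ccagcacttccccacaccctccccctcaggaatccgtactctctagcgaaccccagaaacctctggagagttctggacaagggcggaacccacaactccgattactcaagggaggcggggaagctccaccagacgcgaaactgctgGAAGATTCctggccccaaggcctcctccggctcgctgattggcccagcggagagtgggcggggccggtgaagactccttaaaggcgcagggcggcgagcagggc
Hsph1: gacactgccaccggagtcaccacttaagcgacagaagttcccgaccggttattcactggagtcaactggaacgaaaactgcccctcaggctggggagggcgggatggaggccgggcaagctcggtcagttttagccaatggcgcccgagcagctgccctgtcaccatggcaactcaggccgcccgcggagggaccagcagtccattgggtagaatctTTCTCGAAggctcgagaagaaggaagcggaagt
The Hspa1a and Hspa1b windows matched at 247 of 250 positions. In both, GAANNTTC began 104 bases before the start site, and a CCAAT box (CCAAT, either strand, in 33.85% of windows) lay 67 bases before it. In the Hsph1 window, from the first of its 2 annotated starts, TTCNNGAA began 33 bases before the start. Of 32851 windows of the same length from 27025 genes, 6.694% held GAANNTTC, 7.166% TTCNNGAA and 12.84% either form. Each motif was searched on both strands; both pair forms read the same on either strand. The windows found for Dnajb1, Fos, Fosb and Junb held neither form, and none of them held the cAMP response element TGACGTCA (1.546% of windows) or the CArG box bound by serum response factor (1.467%). Only the 250 bases before each start were searched, for exact spellings, so elements further upstream or spelled otherwise would be missed. The Fos window held TATAAA 33 bases before the start (12.37% of windows). No window was matched for Hspa8, Egr1 and Ier2.

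The near-identity of the HSP70 copies bears on their counts. Their longest protein-coding transcripts were 95.2% identical where aligned, and 63.77% of the 31-base stretches of Hspa1a also occurred in Hspa1b, so the split of reads between them is uncertain and their sum is the safer measure. Hspa8 shared 71.61% of its 31-base stretches with 13 other genes, led by the pseudogene Gm15459, so its level is uncertain in the same way. Junb overlaps Prdx2 and Hspa1a overlaps Gm20481 on the opposite strand, and no source used here says whether counting used strand. The other members, Dnajb1 (chr8:83608193-83612653), Fos (chr12:85473890-85477273), Fosb (chr7:19302696-19310051), Egr1 (chr18:34859823-34864984) and Ier2 (chr8:84661331-84662852), shared at most 0.4122% of theirs.

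Pklr, the liver and red cell pyruvate kinase, did not fall in the libraries labelled KO. In liver its level was 211.7 ± 55.2 TPM (transcripts scaled for length and library total, SD, n = 4) in labelled KO and 113 ± 37.1 in CTRL on chow, and 405.1 ± 63.4 against 212.6 ± 44.8 on HSD. Directions between genotypes therefore follow the labels only. Total estimated counts were 5724366 to 12188623 per library. Each tissue carried its own markers, with summed TPM of at least 37190 for 8 hepatocyte markers in liver, 36920 for 8 adipocyte markers in WAT, 24600 for 9 cardiomyocyte markers in heart and 34710 for 9 skeletal muscle markers in muscle. A clock score was taken as the mean log2 level of 6 genes of one phase (Dbp, Tef, Hlf, Ciart, Per2, Per3) less the mean of Clock, Npas2 and Arntl. In liver it was 0.4672 to 2.835 in CTRL chow and -2.688 to -0.008252 in CTRL HSD, and in labelled KO on HSD it was above every labelled-KO chow library in WAT, heart and muscle. Among HSD libraries it was higher in every labelled-KO than in every CTRL library in each of the 4 tissues. In muscle it was 0.2637 to 1.28 in labelled KO against -1.824 to -0.3418 in CTRL on HSD.

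**Figure D1:**
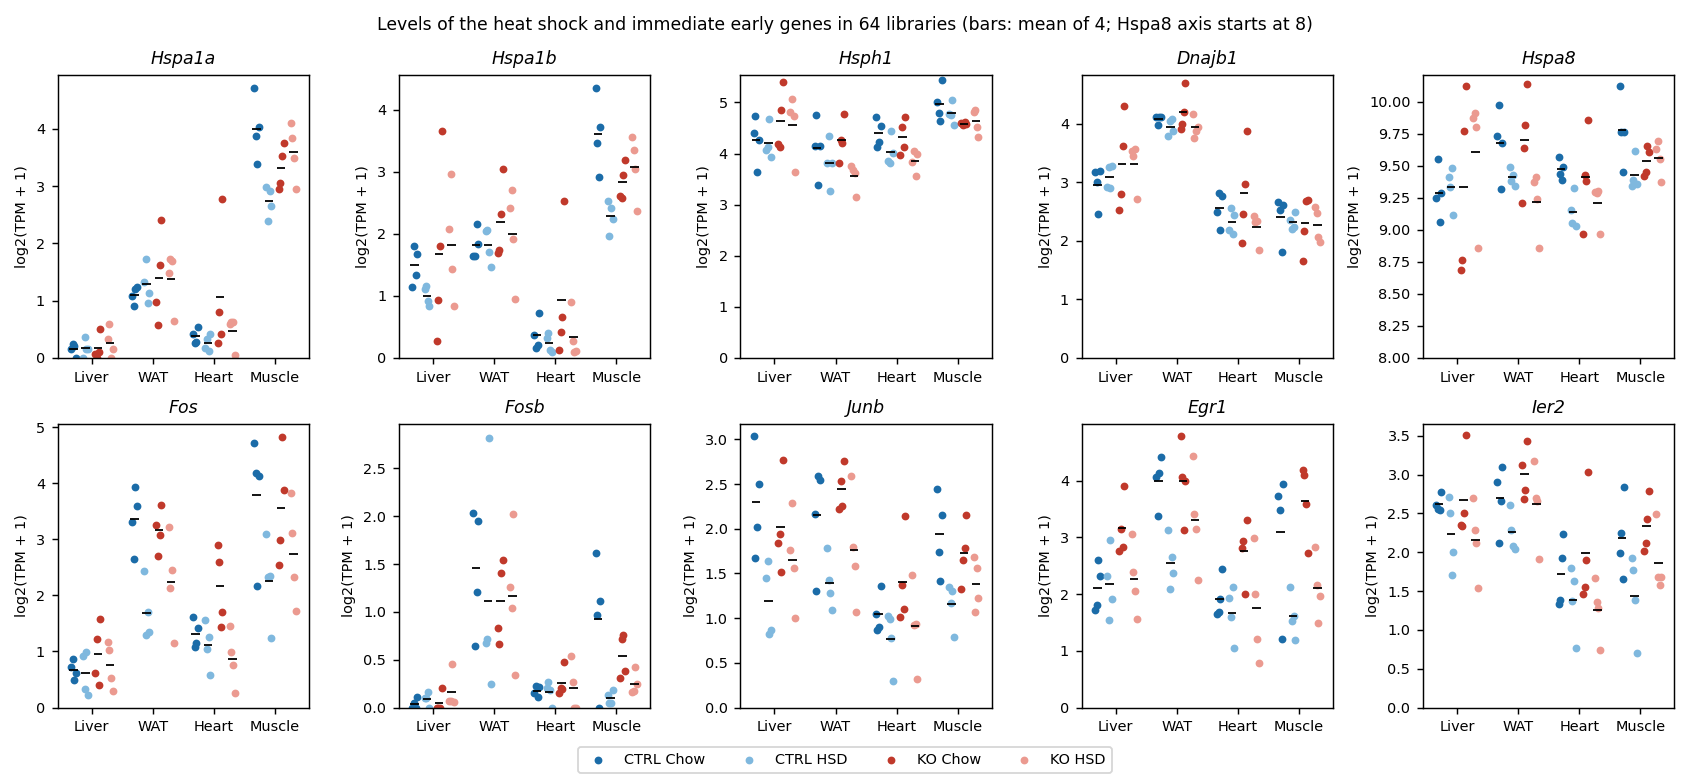
Level of each of the 10 genes as log2(TPM + 1) in all 64 libraries, by tissue and group (colours), with a bar at the mean of each group of 4; the Hspa8 axis starts at 8. Hspa1a and Hspa1b are highest in muscle, Fosb is near 0 in liver and heart, and single libraries such as labelled KO chow replicate 4 stand above their group.

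Hspa8, the constitutive HSC70 chaperone, was by far the most abundant member in each tissue, with similar TPM levels in all 4 tissues. Its median over 16 libraries was 661.8 TPM in liver, 683.9 in WAT, 634.8 in heart and 765.4 in muscle, and the ranges overlapped. Hsph1 came next in liver, heart and muscle, with medians of 19.2, 15.9 and 25 TPM, against 13.1 in WAT. Dnajb1, the HSP40 co-chaperone that delivers substrates to HSP70, was highest in WAT at 15.3 TPM (range 12.6 to 24.8), then liver at 8.06 (4.47 to 18.8), and lay at 4.38 in heart and 4.35 in muscle.

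The inducible copies differed most between tissues. The median of Hspa1a was 0.114 TPM in liver, 1.32 in WAT, 0.329 in heart and 9.89 in muscle. That of Hspa1b was 1.37, 2.66, 0.224 and 6.62 TPM in the same order. In muscle no library fell under 4.21 TPM for Hspa1a or 2.9 for Hspa1b, while 4 liver libraries had no Hspa1a count and the liver total over 16 libraries was 47.3 counts. Hspa1a made up a median of 7.1% of the summed TPM of the pair in liver, 33.4% in WAT, 54.3% in heart and 59.3% in muscle, with ranges of 0 to 19% and 55.9 to 61.8% in liver and muscle that did not overlap. This share rests on how reads were divided between the copies. The summed TPM of both, which does not, had medians of 1.59 in liver, 4.27 in WAT, 0.585 in heart and 16.6 in muscle.

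The immediate early genes were low in all 4 tissues. Fos, the AP-1 subunit, had medians of 0.594 TPM in liver, 5.39 in WAT, 1.53 in heart and 7.23 in muscle. Egr1, a zinc finger factor, had 4.13, 9.54, 2.9 and 4.52 TPM, and Junb, an AP-1 partner of Fos, had 2.29, 2.99, 1.004 and 1.81. Ier2, a short-lived nuclear protein, had 4.67 and 5.38 TPM in liver and WAT against 1.85 and 2.87 in heart and muscle. Fosb, a Fos paralogue, reached a median of 1.18 TPM in WAT and no more than 0.213 in the others, and gave only 19 counts over the 16 liver libraries.

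Differences between tissues were tested with edgeR over all 64 libraries, on TMM-scaled counts, with Benjamini-Hochberg adjustment over 14592 genes. Members past an adjusted p of 0.05 numbered 9 of 10 for liver against WAT, where 85.1% of all genes passed, 8 for liver against heart (83.5% of genes), 7 for liver against muscle (84.6%), 4 for WAT against heart (80.6%), 8 for WAT against muscle (84.6%) and 6 for heart against muscle (68.5%). The members' shares are near or below those of all genes, and for WAT against heart well below. The 64 libraries came from 16 mice and were fitted as independent. The scale matters here: with limma on log2(TPM + 1) the median difference of all genes between liver and WAT moved from -0.01 to -0.95, and that between WAT and heart from 0.08 to 1.02. Members past the threshold in the same direction on both scales numbered 4, 6, 6, 2, 6 and 5 in the 6 comparisons as listed above.

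Differences that held on both scales included the HSP70 copies in muscle. On TMM-scaled counts Hspa1a was lower than in muscle by a log2 fold change of -5.95 ± 0.38 (SE) in liver, -3.94 ± 0.28 in WAT and -4.25 ± 0.3 in heart (edgeR adjusted p at most 3.62e-18). Hspa1b was lower than in muscle by -1.48 ± 0.31, -2.43 ± 0.31 and -3.94 ± 0.38 in the same tissues. Fos was also lower in liver, WAT and heart than in muscle, by -3.4 ± 0.34, -1.94 ± 0.28 and -2.2 ± 0.29. These directions held, but some sizes depended on the scale. On the TPM scale WAT against muscle gave -0.473 for Fos (limma adjusted p = 0.0418) and -0.996 for Hspa1b. Liver against muscle gave -1.455 for Hspa1b, near its value on TMM-scaled counts. Fosb was higher in WAT than in liver, heart and muscle. Egr1 passed in no pair of tissues by edgeR, though on the TPM scale WAT was above each other tissue. Hspa8 and Dnajb1 changed direction between liver and WAT with the scale: Hspa8 gave 1.39 on TMM-scaled counts and -0.11 on the TPM scale, and Dnajb1 gave 0.55 and -0.87. Hspa1b, Junb and Ier2 changed direction there too, so the order of these tissues is not settled for any of the 5. In whole tissue, fewer cells of a type and less RNA per cell cannot be told apart.

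**Figure D2:**
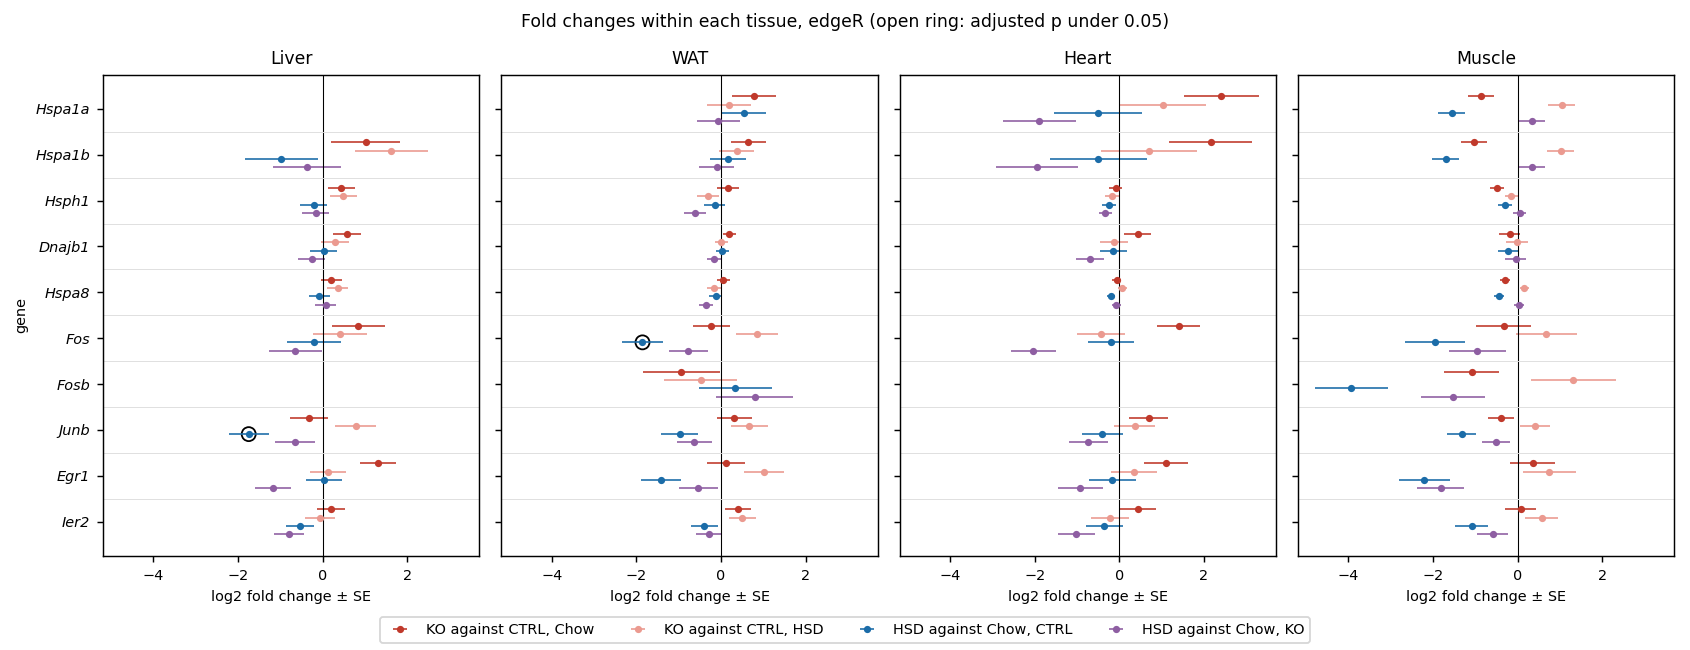
Log2 fold change ± SE of each member in the 4 pairwise comparisons of genotype and diet (colours) within each tissue, from edgeR with 4 libraries per group; an open ring marks an adjusted p under 0.05. The rings are Junb in liver and Fos in WAT, both for HSD against chow in CTRL, and all 10 muscle values of that comparison lie under 0.

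Within a tissue, genotype and diet were compared by edgeR with adjustment over 11259 genes in liver, 13255 in WAT, 12134 in heart and 12092 in muscle. Low counts left 8 members tested in liver (without Hspa1a and Fosb), 10 in WAT, 9 in heart (without Fosb) and 10 in muscle. Of the 20 comparisons, 2 had a member past the threshold, and both were HSD against chow in CTRL.

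In CTRL liver, Junb fell on HSD, with a log2 fold change of -1.75 ± 0.47 (edgeR adjusted p = 0.0432). Its levels were 7.19, 2.18, 3.05 and 4.65 TPM in the 4 chow libraries and 1.72, 2.13, 0.763 and 0.822 on HSD. The chow libraries all lay above the HSD libraries, the nearest by a small gap, as for 3.22% of all genes in that direction. It was 1 of 8 members tested, and 4.67% of all genes passed. The other 7 lay between -0.98 (Hspa1b) and 0.03 (Egr1) on the log2 scale, and none passed; Fos gave -0.2 ± 0.63. The clock score did not overlap between these groups, and the GC slope, the change in a library's log2 deviations per 10 percentage points of a transcript's GC content, was 0.0922 to 0.193 in chow and -0.234 to 0.14 on HSD. Junb has a GC content of 62.58%, the highest of the 10. Removing each library's trend on GC content and length gave an adjusted p of 0.0531, and leaving out each of the 8 libraries in turn gave 0.0549 to 0.119, except without chow replicate 2 (0.0291). The summed level of 8 hepatocyte markers was 37190 to 73720 TPM in these chow libraries and 85750 to 91220 on HSD. The part of the clock score, the GC slope and the markers in the Junb value was not tested beyond that removal.

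In CTRL WAT, Fos fell on HSD by 1.86 ± 0.48 on the log2 scale (edgeR adjusted p = 0.0416). Chow libraries held 8.87, 5.27, 14.2 and 11.1 TPM and HSD libraries 4.41, 1.44, 2.24 and 1.53, with no overlap. Egr1 was at 15.6, 9.41, 16.6 and 20.4 TPM against 7.72, 3.23, 5.26 and 4.15, also with no overlap, and its log2 fold change of -1.43 ± 0.47 did not pass (adjusted p = 0.0902). Junb gave -0.98 ± 0.43 (adjusted p = 0.188). Of all genes, 18.3% had every HSD library below every chow library, so 2 of 10 members is near the background. The heat shock members lay between -0.15 and 0.53. Fos was 1 of 10 members, and 4.77% of all genes passed. With any 1 of these 8 libraries left out, Fos gave an adjusted p between 0.0548 and 0.114. The summed level of 8 endothelial markers was 352.4 to 540.2 TPM in these chow libraries and 252.7 to 305.8 on HSD, and 5 of the 8 fell by edgeR. That of 4 smooth muscle markers was 194.5 to 326.4 against 109.2 to 132.4 TPM, and 2 of them fell. That of 5 neutrophil markers was 10.41 to 55.54 against 5.03 to 8.33 TPM. The mitochondrial share was 7.56 to 8.27% on chow and 8.79 to 9.96% on HSD, and the slope on transcript length 0.0261 to 0.135 and -0.0414 to -0.000693, all without overlap. The part of these cell types and measures in the Fos value was not tested, beyond the removal of the GC and length trend, which left an adjusted p of 0.0488.

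CTRL muscle had the broadest shift of members, although none passed the threshold. All 10 had a log2 fold change under 0 on HSD against chow, and 8 had an unadjusted p under 0.05, while 50.16% of all genes had one above 0 and 14.92% an unadjusted p under 0.05. By edgeR 0.091% of all genes passed. Hspa1b was at 19.4, 10.1, 6.54 and 12.1 TPM on chow and 4.79, 2.9, 4.31 and 3.71 on HSD, a log2 fold change of -1.7 ± 0.32 (adjusted p = 0.0533). Hspa1a was at 25.2, 13.6, 9.5 and 15.4 TPM against 6.87, 4.21, 6.54 and 5.28, which gave -1.56 ± 0.32 (adjusted p = 0.067). Neither copy had overlapping groups, and Junb, at 1.67 to 4.44 against 0.728 to 1.55 TPM, had none either. These were 3 of 10 members with every HSD library below every chow library, against 1.62% of all genes. The HSP70 copies among them share reads, so they are not separate. Their summed level was 16.05 to 44.62 TPM on chow and 7.109 to 11.66 on HSD.

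In CTRL muscle Fos, Egr1 and Fosb overlapped between the diets through a single chow library. Ier2 overlapped too, at 2.14 to 6.16 TPM on chow and 0.621 to 2.785 on HSD. Fos was at 25.4, 17.1, 3.5 and 16.4 TPM on chow and 7.56, 4.01, 4.09 and 1.36 on HSD. Egr1 was at 12.3, 10.1, 1.31 and 14.3 TPM against 3.39, 1.89, 2.08 and 1.27, and Fosb at 2.05, 0.957, 0 and 1.16 against 0.0973, 0.0316, 0.0354 and 0.133. The Fosb values on HSD rest on 1 to 3 estimated counts per library. Chow replicate 3 lay within the HSD range for Fos and Egr1 and below it for Fosb, while the other 3 chow libraries lay above all HSD libraries. Without that library 6 members passed in edgeR, where 0.734% of all genes did: Fosb (-4.32 ± 0.59), Egr1 (-2.55 ± 0.46), Hspa1b (-1.89 ± 0.3), Hspa1a (-1.73 ± 0.3), Junb (-1.5 ± 0.33) and Hspa8 (-0.53 ± 0.11). Chow replicate 3 stood out by the members' own values, so these added calls are not independent evidence of a diet effect. With all 8 libraries, DESeq2's Wald test called 5, namely Hspa1a, Hspa1b, Hspa8, Junb and Egr1, where it called 2.28% of genes. Chow replicate 1, the highest for the HSP70 copies, had the lowest slope on transcript length of the muscle libraries (-0.158). This slope did not overlap between the groups, at -0.158 to -0.0129 on chow and 0.00152 to 0.0286 on HSD. With the GC and length trend removed Hspa1b gave -1.74 (adjusted p = 0.0468) and Hspa1a -1.6 (adjusted p = 0.049). Without chow replicate 1, and with no trend removed, Hspa1b gave -1.33 (edgeR adjusted p = 0.104). Leaving out any other library except chow replicate 3 gave Hspa1b an edgeR adjusted p of 0.0713 to 0.172. Of 8 adipocyte markers in this muscle comparison 7 were higher on HSD, and Plin1, the lipid droplet coat protein, rose; their summed level was 553.1 to 690.3 TPM on chow and 532.7 to 857.5 on HSD. The summed level of 5 neutrophil markers was 2.1 to 41.62 TPM on chow and 1.27 to 3.83 on HSD, and that of 7 fibroblast markers 241.4 to 475.9 and 446.3 to 545.1. The part of these cell types in the members' values was not tested.

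Sucrose feeding gave no call in the labelled-KO groups. Members past the threshold were 0 in liver (0.00888% of genes passed), 0 in WAT (6.38%), 0 in heart (0.14%) and 0 in muscle (0.00827%). With 10.02, 23.26, 7.425 and 8.386% of all genes at an unadjusted edgeR p under 0.05, the members there numbered 2, 2, 4 and 1. DESeq2 called 1 of these, Fos in heart, where it called 0.643% of genes. Heart Fos was at 6.44, 5.07, 1.72 and 2.27 TPM on chow and 1.73, 0.987, 0.699 and 0.196 on HSD. The lowest chow library lay just under the highest HSD library, with a log2 fold change of -2.03 ± 0.54 (edgeR adjusted p = 0.204). Egr1 had the smallest p in liver (-1.17 ± 0.43, adjusted p = 0.337) and muscle (-1.82 ± 0.56, adjusted p = 0.314), and Hsph1 in WAT (-0.62 ± 0.26, adjusted p = 0.156). In CTRL heart, 0 of 9 members passed (0.0247% of genes), none had an unadjusted p under 0.05 (6.156% of genes), and Hspa8 came nearest (-0.2 ± 0.1, edgeR adjusted p = 0.8292). Its diet groups did not overlap there, as for 6.914% of all genes in that direction. All 9 heart members had log2 fold changes under 0 on HSD in both genotypes. Of all genes 49.23% in CTRL and 49.07% in labelled KO had one above 0. Members share libraries, so the 9 are not separate observations.

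Genotype gave no call among the members. On chow 0 members passed in liver (0% of genes), WAT (6.68%), heart (0%) and muscle (0%), with 1, 0, 3 and 4 at an unadjusted p under 0.05. On HSD 0 passed in liver (0.0711%), WAT (0.106%), heart (0.0412%) and muscle (0%), with 0, 0, 0 and 2. Of all genes 12.23, 23.18, 3.684 and 11.28% had an unadjusted edgeR p under 0.05 on chow. On HSD the shares were 5.862, 10.63, 5.439 and 5.16%. DESeq2 called 0 in each of these 8 comparisons. Egr1 in chow liver was at 5.79, 7.87, 6.13 and 14.1 TPM in labelled KO and 2.31, 2.5, 5.04 and 3.98 in CTRL; the groups did not overlap (1.7% of all genes in that direction), and the log2 fold change of 1.32 ± 0.43 did not pass (edgeR adjusted p = 0.248). In muscle the HSP70 pair lay on opposite sides in the 2 diets: labelled KO against CTRL gave -1.03 ± 0.31 for Hspa1b on chow (adjusted p = 0.343) and 1.01 ± 0.33 on HSD (adjusted p = 0.874). The clock score did not overlap between the genotypes on HSD in any tissue, and its part in these values was not tested.

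The interaction of genotype and diet was tested directly. No member passed in liver (0% of genes), WAT (0.573%), heart (0.00824%) or muscle (0%), with 0, 0, 1 and 3 at an unadjusted p under 0.05. Of all genes 8.695, 18.47, 4.78 and 7.881% had an unadjusted edgeR p under 0.05. The muscle values were 2.04 ± 0.45 for Hspa1b and 1.9 ± 0.44 for Hspa1a (edgeR adjusted p = 0.344 for both), and DESeq2 called both, at adjusted p-values of 0.00272 and 0.00304, where it called 0.149% of genes. The copies share reads, so these calls are not separate. Labelled KO muscle on HSD held Hspa1a at 16.1, 13.4, 10.3 and 6.72 TPM, and on chow at 6.69, 7.32, 10.5 and 12.5. These ranges overlapped those of both CTRL groups. The part of the clock score in the interaction values was not tested.

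Heart Hspa1a and Hspa1b on chow turned on 1 library. Hspa1a was at 0.191, 0.749, 0.329 and 5.87 TPM in labelled KO and 0.338, 0.194, 0.209 and 0.457 in CTRL. The 5.87 TPM rest on 139.6 estimated counts in replicate 4, against 5.47 to 24.45 in the other 3. Hspa1b in that library was 4.74 TPM, against 0.0873 to 0.58 in the other 3. The fitted log2 fold changes of 2.41 ± 0.89 and 2.16 ± 0.98 (edgeR adjusted p = 1 for both) rest on it.

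The other genes of the chaperone and immediate early programmes gave few calls, to be read against the shares of all genes called: 4.67% in CTRL liver and 4.77% in CTRL WAT on HSD, 6.38% in labelled-KO WAT on HSD, and 6.68% in WAT by genotype on chow. Of 30 other cytosolic chaperones and co-chaperones tested in WAT, Fkbp4, an HSP90 partner of steroid receptors, rose on HSD in CTRL (0.56 ± 0.1, adjusted p = 0.00958), and Hspb7, a small heat shock protein, fell (-1.31 ± 0.34). In labelled-KO WAT on HSD, the small heat shock proteins Cryab (-0.86 ± 0.2) and Hspb1 (-0.87 ± 0.23) fell. Of 8 mitochondrial and endoplasmic reticulum heat shock proteins there, Hspa9 (0.45 ± 0.11) and Trap1 (0.4 ± 0.11), both mitochondrial chaperones, rose and Serpinh1, the collagen chaperone HSP47, fell (-1.21 ± 0.23). In CTRL WAT the mitochondrial co-chaperonin Hspe1 rose (0.59 ± 0.14), as did Hsbp1, a binding partner of HSF1 (0.28 ± 0.07), 1 of 4 heat shock factors and partners tested. In CTRL liver, Hspa13, a microsomal HSP70-like protein, rose on HSD (1.15 ± 0.21). All these passed edgeR's adjusted p.

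Of the other immediate early genes, Btg1, an antiproliferative gene, rose in CTRL liver on HSD (0.64 ± 0.15), 1 of 29 tested, and Plk2, a stress-regulated kinase, fell in labelled-KO WAT on HSD (-0.84 ± 0.22), 1 of 36. Of 13 serum response factor and MAP kinase inputs in WAT, Elk3, a ternary complex factor, fell on HSD in CTRL (-0.66 ± 0.14) and in labelled KO (-0.67 ± 0.14). Elk4, a second such factor, was lower in labelled KO on chow (-2.78 ± 0.53). In CTRL muscle on HSD no gene of these lists passed. All 30 other cytosolic chaperones there had log2 fold changes under 0 (13 at an unadjusted p under 0.05, median log2 fold change -0.22), as had all 8 mitochondrial and reticulum heat shock proteins and all 8 other AP-1 and EGR factors (median -0.52). Of 35 other immediate early genes 26 were lower (median -0.4), against a median of 0 over all 12092 genes. Of those 14.92% had an unadjusted edgeR p under 0.05 and 50.16% a log2 fold change above 0.

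**Figure D3:**
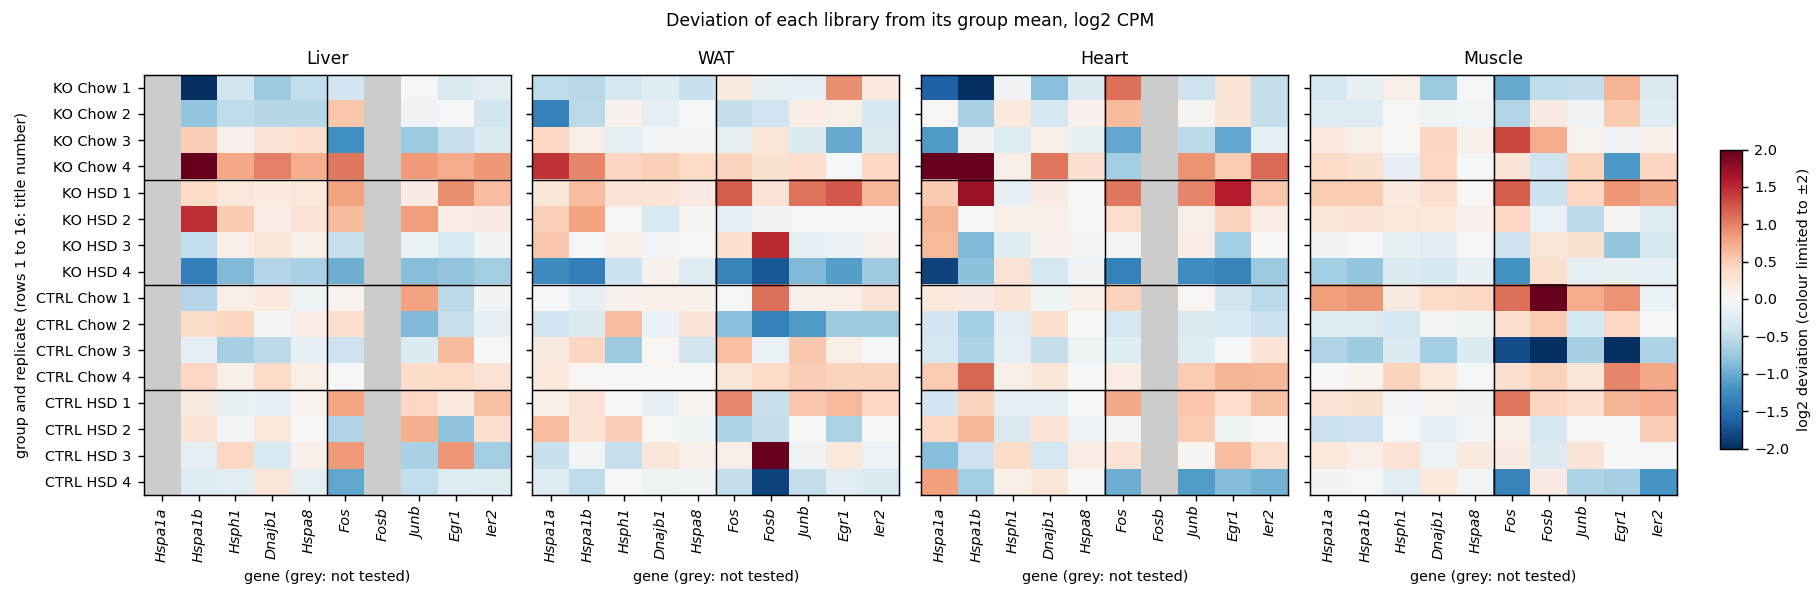
Deviation of each library from its group mean in log2 CPM, for each member (columns) and each group and replicate (rows, in title-number order) in the 4 tissues; colours stop at ±2 and grey marks members not tested. Rows such as labelled KO HSD replicate 4 are blue, and labelled KO HSD replicate 1 red, in all 4 tissues.

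Replicates of 1 group differed more in these genes than in most genes of like abundance. The within-group SD was taken on log2 CPM (counts relative to the TMM-scaled library total). It was above the median of genes at a similar level for all 37 member-by-tissue values, and above their 90th percentile for 18. It was 1.27 for Hspa1b in liver (median of 2959 genes near its level 0.39), 1.08 for Fos in muscle (0.215) and 0.982 for Egr1 in muscle (0.214). The least variable was Hspa8, at 0.148 in heart (0.125).

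Members deviated from their group means together within a tissue. After group means were removed, correlations over the 16 libraries of a tissue were positive in 33 of 33 pairs, with a median Pearson r of 0.68, and 17 passed a Benjamini-Hochberg adjusted permutation p of 0.05. The pairs set Fos against the other immediate early genes, Hspa1b against the other heat shock genes, and Fos against Hspa1b, so they share genes and libraries. In muscle, Fos and Hspa1b gave r = 0.754 (permutation p = 0.00379, adjusted 0.0156; Spearman's rho 0.779, permutation p = 0.00211; r = 0.747 without the 2 farthest libraries). In heart the same pair gave r = 0.0006 (permutation p = 0.999). Hspa1b and Hspa8 gave r = 0.883 in liver (permutation p = 0.00138, adjusted 0.0109; rho 0.897, permutation p = 0.00131; 0.834 without 2). Hspa1a with Hspa1b, at r = 0.984 in muscle, shares reads.

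Sample titles carry a number from 1 to 16 in each tissue, and a number has the same genotype and diet in all 4. All 4 tissues were taken from 16 mice, but nothing in the labels says that a number marks a mouse. Libraries with the same number deviated alike in these genes. Of 52 correlations of a member between a pair of tissues, 48 were positive, with a median r of 0.475, and 13 passed an adjusted permutation p of 0.05. On log2(TPM + 1) 20 passed, and with each library's trend on GC content and length removed 7 did. The 52 share libraries, and a median gene gave an r of 0.097 to 0.184 in the 6 pairs of tissues.

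**Figure D4:**
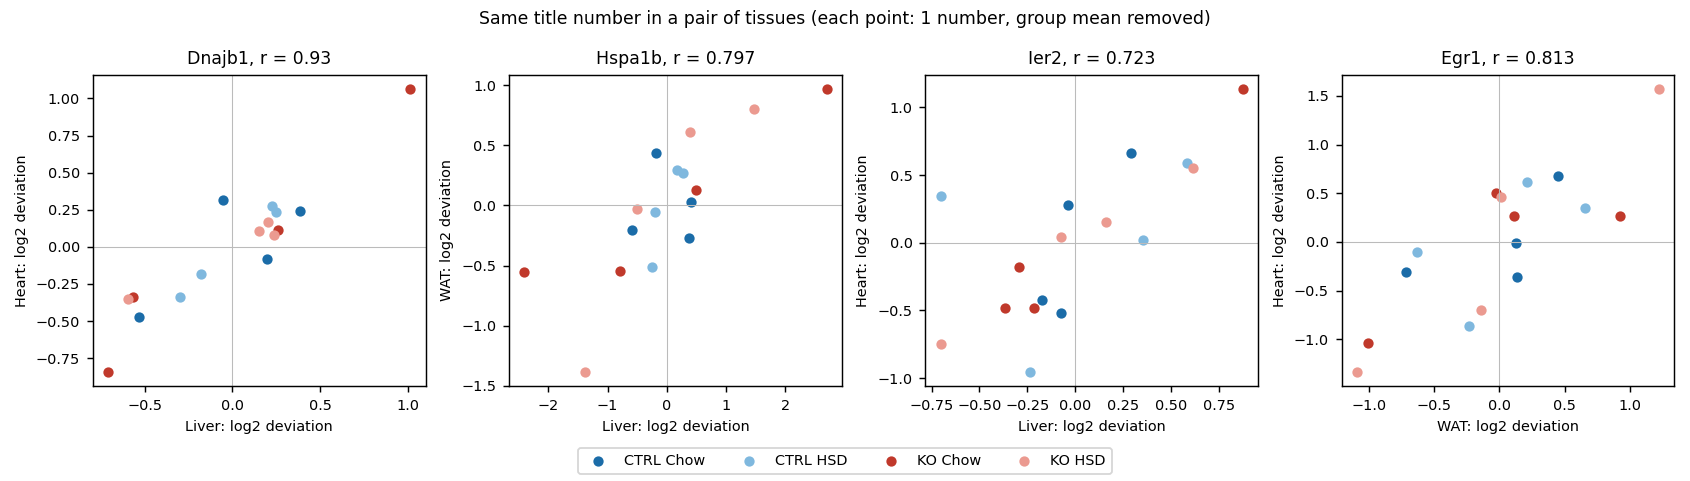
Deviation from the group mean, in log2 CPM, of libraries with the same title number in a pair of tissues, for 4 member and tissue pairs chosen for their high correlation; each point is 1 title number and colours give the group. The points rise together, and labelled KO chow replicate 4 is the highest point for Dnajb1 and Hspa1b.

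Dnajb1 in liver and heart had the highest value, r = 0.93 (permutation p = 0.0005, adjusted 0.013; Spearman's rho 0.821, permutation p = 0.00229; r = 0.867 without the 2 farthest numbers). Ier2 was the steadiest member, with r of 0.54 to 0.754 in its 6 pairs of tissues, of which 4 passed. Egr1 gave r = 0.813 between WAT and heart (permutation p = 0.00284, adjusted 0.0211; rho 0.765, permutation p = 0.00383; 0.652 without 2) and -0.164 in its lowest pair. Hsph1 was the exception, with r of -0.286 to 0.582 and none of 6 past the threshold. Fos was positive in all 6 pairs, at 0.279 to 0.578, and passed in none. By pair of tissues, WAT and muscle had a median r of 0.369 and none of 10 passed, while liver and heart had a median of 0.712 with 4 of 8.

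Single numbers stood out, and those named were picked from the 16 for their one-sided counts. The 37 values of a number come from 4 libraries, so they are not separate observations. Labelled KO HSD replicate 4 lay below its group mean in 34 of 37 member-by-tissue values, with a median deviation of -0.75 log2 units. Labelled KO HSD replicate 1, of the same group, lay above it in 34 of 37 (median 0.5). Fos deviated by 0.8 to 1.21 in the 4 tissues of replicate 1 and by -1.35 to -0.97 in those of replicate 4. Egr1 in these 2 numbers was at 7.37 and 1.96 TPM in liver, 20.5 and 3.75 in WAT, 6.91 and 0.72 in heart, and 6.13 and 2.9 in muscle.

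Labelled KO chow replicate 4 was above its group mean in 31 of 37 values, most for Hspa1b, by 0.3 to 2.75 log2 units. Hspa1b in that group was at 0.205, 0.906, 2.5 and 11.6 TPM in liver and 2.21, 2.33, 3.98 and 7.21 in WAT, so replicate 4 was the highest in both. CTRL chow replicate 4 was above in 34 of 37, including all 18 immediate early values. CTRL HSD replicate 4 was below in 31, with 17 of 18 immediate early values, while replicate 1 of that group was above in 17 of 18 of those. Heat shock and immediate early genes did not always move together: CTRL HSD replicate 1 had 9 of 19 heat shock values above the mean.

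Measures of library composition moved with the members. The GC slope, as defined for liver Junb, was 1 of them. Members have 47.48 to 62.58% GC, against a median of 49.72% over all genes. With group means removed, its Pearson r with the mean deviation of the immediate early members was 0.7 in liver, 0.79 in WAT, 0.7 in heart and 0.17 in muscle (Spearman's rho 0.69, 0.69, 0.61 and 0.37). Without the 2 farthest libraries r was 0.63, 0.57, 0.37 and -0.076. With the heat shock members r was 0.69, 0.66, 0.47 and 0.26. GC slopes of the same number also went together, with r of 0.53 to 0.69 between tissues. No p is given for a mean over members.

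The share of mitochondrial transcripts ran the other way. Its r with the heat shock mean was -0.34 in liver, -0.9 in WAT, -0.65 in heart and -0.66 in muscle (rho -0.26, -0.84, -0.48 and -0.78), and -0.49, -0.84, -0.42 and -0.75 without the 2 farthest libraries. With the immediate early mean it was -0.28, -0.31, -0.55 and -0.52, and -0.32, -0.0054, -0.5 and -0.74 without 2. Labelled KO HSD replicate 4 had the highest share of its tissue in liver (10.6%), WAT (11.1%) and heart (48.55%), and labelled KO chow replicate 4 the lowest in WAT (6.43%) and heart (36.35%), and their GC slopes in heart were -0.443 and 0.153, the lowest and highest of that tissue. The clock score correlated with the immediate early mean at -0.27, -0.14, -0.55 and -0.57 in liver, WAT, heart and muscle and with the heat shock mean at 0.25, 0.19, 0.11 and -0.36, and went with itself between tissues at 0.38 to 0.79. The slope on transcript length gave -0.16, -0.59, 0.009 and -0.34 with the immediate early mean and -0.028, 0.12, 0.42 and -0.51 with the heat shock mean, the last at -0.045 without 2 libraries. Total counts gave r between -0.35 and 0.33. The part of these measures in the members' values was not tested beyond the removal of the GC and length trend. With that trend removed 48 of the 52 correlations between tissues stayed positive, with a median r of 0.406, and Dnajb1 in liver and heart gave 0.916.

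The genes whose deviations were most like those of Hspa1a, Hspa1b, Hsph1 and Dnajb1 were sought among 8553 genes tested in all 4 tissues, by the mean over tissues of Pearson r across 16 libraries. The first 5 were Bag3, an HSP70 nucleotide exchange factor (mean r 0.818), Rsrp1 (0.787), Hspb1, the small heat shock protein HSP27 (0.783), Dnaja1, an HSP40 co-chaperone (0.737), and Banp, a nuclear DNA-binding protein (0.735). Bag3 reached 0.935 in liver and 0.753 in WAT. For Fos, Fosb, Junb, Egr1 and Ier2 they were Hspb1 (0.71), Rcc2 (0.7), Prkcsh, the glucosidase II beta subunit (0.684), E2f4, a cell cycle transcription factor (0.659), and Mrpl55, a mitochondrial ribosomal protein (0.655). Hspb1 stood in both lists. The means hide differences between tissues: in muscle E2f4 gave 0.339 and Mrpl55 0.41, while Rcc2 gave 0.713. Fosb was not tested in liver and heart, nor Hspa1a in liver. The part of the GC slope in these likenesses was not tested.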

How the data were processed

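The authors deposited estimated counts and TPM (transcripts scaled for length and library total) per gene for 64 libraries. Per the submitters' processing notes kallisto and GRCm38 were used; no source used here gives the version, annotation or summing to genes. Counts were rounded and tested with edgeR 4.0.16 (R 4.3.3): group means, filterByExpr with a minimum count of 10, TMM, robust quasi-likelihood F test, two-sided, Benjamini-Hochberg over all genes, threshold 0.05. Each SE is the log2 fold change over the square root of F. Each tissue was fitted alone (16 libraries), and tissues over all 64. Correlations used log2 CPM (prior count 2) with group means removed and 100000 permutations within groups. Windows and lengths came from RefSeq and GENCODE on GRCm38. Nothing says replicates were separate cages or extractions, so p-values measure the spread between libraries; replicate counts differed beyond sampling noise. Alternatives used DESeq2 1.42.0, limma 3.58.1 on log2(TPM + 1), no filter, summed HSP70 copies, left-out libraries and, added after seeing the data, removal of the GC and length trend. The members and lists were chosen with earlier results of these data known. Text names all members past the threshold or else the one with the smallest p, up to 4 called genes per list, and the 5 most similar genes. Methods were tested on simulated data.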

Additional observations from a re-analysis of the deposited data

Results flagged for a closer look

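In 148 groups of 4 libraries, 11 had a highest or lowest library whose gap to its nearest neighbour exceeded Dixon's 95% critical share of the group's range in TPM. Chance flags about 1 in 20 such groups if values are normal, so several of the 11 may be chance. TPM was not logged here and groups share libraries, so that rate is approximate. Of the 11, 4 were low values of labelled KO HSD replicate 4: Dnajb1 in liver (5.6 TPM, the other 3 at 9.96 to 10.8), Hspa8 in liver (462.6, others 892.2 to 960.3), Hspa8 in heart (500.6, others 623.1 to 628.9) and Hspa1a in heart (0.0358, others 0.509 to 0.544). A further 3 were high values of labelled KO chow replicate 4: Hspa1a in heart (5.87, others 0.191 to 0.749), Hspa1b in heart (4.74, others 0.0873 to 0.58) and Ier2 in liver (10.4, others 4.07 to 4.68). The rest were Fosb in WAT CTRL HSD replicate 3 (6.06 TPM, others 0.189 to 0.64), Dnajb1 in WAT CTRL chow replicate 2 (14.8, others 16.38 to 16.42), Hspa8 in muscle CTRL HSD replicate 3 (781, others 648.3 to 668.4) and Ier2 in muscle labelled KO HSD replicate 1 (4.63, others 1.99 to 2.19).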

How the results depend on the processing

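Counts of members past the threshold kept within 1.5 times their main value in 148 cases and moved further in 12, left-out libraries apart. The 12 were as follows. Junb in liver (HSD against chow, CTRL) gave 0 calls with no low-count filter, with limma on log2(TPM + 1) and with the GC and length trend removed. Fos in WAT gave 0 with no filter, and limma called 2 members, adding Egr1. In muscle CTRL HSD against chow, DESeq2 called 5 and the trend-removed fit 2 against 0. DESeq2 also called 1 in labelled-KO heart and 2 in the muscle interaction, against 0. WAT against heart gave 8 with limma against 4. Correlations between tissues past the threshold were 20 on log2(TPM + 1) and 7 with the trend removed, against 13. With single libraries left out, calls ranged over 0 to 1 in CTRL liver, 0 to 0 in CTRL WAT (lost with each library) and 0 to 6 in CTRL muscle, the 6 without chow replicate 3. On log2(TPM + 1), directions reversed for liver against WAT in Hspa1b (-0.46), Dnajb1 (-0.87), Hspa8 (-0.11), Junb (-0.14) and Ier2 (-0.22), for Hspa8 in WAT against heart (0.19) and for Junb in WAT against muscle (0.39); the cause was not tested. DESeq2 called more genes of all kinds: 909 against 526 in CTRL liver, 1225 against 632 in CTRL WAT and 276 against 11 in CTRL muscle on HSD. Low counts limit Hspa1a in liver and Fosb in liver and heart, which were not tested, and Fosb in muscle, which was.

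Over all genes, same-numbered libraries of a pair of tissues had correlations between -0.065 and 0.3255, over 0.1 for 5 to 7 of 16 numbers. Low as these values were, a library correlated best with its own number in 9 to 14 of 16. Only the 4 numbers of its own genotype and diet group were compared, not all 16. The main tests between tissues left libraries unpaired because no label ties a number to a mouse. Whether same-numbered libraries share a mouse was not tested. Tests between tissues with the replicate block (the title number) had 9, 9, 7, 5, 9 and 8 members past the threshold in the report's order, against 9, 8, 7, 4, 8 and 6. Within a tissue the numbers do not recur across groups, so no block applies there.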
